A study of Mus musculus with 8 samples.

Results

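The 10 Hox genes examined here are Hoxa3, Hoxa4, Hoxa5, Hoxa7, Hoxb3, Hoxb4, Hoxb5, Hoxb6, Hoxc4 and Hoxc5. They were taken by symbol, and are 10 of the 39 Hox genes among 27514 genes counted in all libraries. The counts come from single thymic epithelial cells (TEC) of WT mice of the strain C57 B6 (CD45.2), with no transgene and no treatment in any group. The 8 libraries form 6 groups: E13.5 TEC and the cTEC of E15.5, E17.5 and newborn (NB) mice with 1 library each, and adult cTEC and adult mTEC with 2 libraries each. Here cTEC and mTEC are the epithelial cells of the cortex and of the medulla, sorted as viable EpCAM+ CD45- cells that were Ly51+ UEA-1- (cTEC) or Ly51- UEA-1+ (mTEC). Cells at E13.5 were sorted as total EpCAM+ CD45- epithelium, so the step from E13.5 to E15.5 and the change of sorting gate cannot be told apart. Adults were 4 to 6 weeks old, newborns 0 to 2 days, and animals of either sex were used. Newborn and adult thymus was digested with Liberase and enriched on Percoll, and embryonic thymus with trypsin, so the step from E17.5 to the newborn and the change of preparation cannot be told apart. The libraries were captured as separate data sets, and E17.5 cTEC was the only library below the adult in data set 2. The steps from E15.5 to E17.5 and from E17.5 to the newborn thus also cannot be told apart from the data set.

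Hox genes encode homeodomain transcription factors that lie in the clusters HoxA, HoxB, HoxC and HoxD. Within a cluster the genes are ordered by paralogue group, and low groups are used toward the head and high groups toward the tail of the embryo. The thymus and parathyroid arise from the third pharyngeal pouch, and Hoxa3 is the Hox gene best known to be needed there. Hox proteins bind DNA together with cofactors of the TALE class, the Pbx, Meis and Pknox proteins, and their transcription is set by retinoic acid and held by Polycomb and Trithorax complexes.

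The members are related in the part of the gene that encodes the homeodomain, and a read that lies wholly in letters shared by 2 genes cannot be given to either of them for certain. Whole transcripts (GENCODE, mm10) were compared between Hox genes whose loci do not overlap. The longest run of letters that a member shared there was between 20 bases (Hoxc4 with Hoxc6) and 52 bases (Hoxb4 with Hoxa6). Pairs with overlapping loci were left out of this range. Among them, Hoxc5 shares 166 exonic bases with Hoxc10 on the same strand. In adult mTEC 2 these genes had 20 and 205 UMIs, and how reads of the shared bases were counted was not tested.

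In mm10 coordinates the HoxA members lie on chromosome 6, all on the minus strand, with Hoxa3 at chr6:52169062-52213336, Hoxa4 at chr6:52189671-52191753, Hoxa5 at chr6:52201754-52204587 and Hoxa7 at chr6:52214491-52221854. The HoxB members lie on the plus strand of chromosome 11, with Hoxb3 at chr11:96323326-96347930, Hoxb4 at chr11:96318267-96321638, Hoxb5 at chr11:96303336-96306121 and Hoxb6 at chr11:96292476-96301569. Hoxc4 lies at chr15:103018934-103036852 and Hoxc5 at chr15:102967443-103017429, both on the plus strand. The Hoxa3 locus spans Hoxa4 and Hoxa5 because of its long introns. The antisense gene Hoxb3os covers 2250 exonic bases (52.9%) of Hoxb3 and the antisense gene Hoxaas3 covers 586 exonic bases of Hoxa7 and 297 of Hoxa3. Whether strand was used in counting is not given in the sources used here, so Hoxa3, Hoxa7 and Hoxb3 may hold some reads of these antisense genes.

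Of 28334 deposited cells, 25750 passed the study's limits on mitochondrial reads and detected genes, and 493 (adult cTEC 1) to 8350 (E17.5 cTEC) cells per library were epithelial-like after clusters with parathyroid or thymocyte markers were left out. The libraries differed widely in depth, with a median of 3996 unique molecular identifiers (UMIs) per kept cell in adult cTEC 1 and 11386 in adult mTEC 2. A level is given as CPM, the UMIs of a gene per 1000000 UMIs of the epithelial-like cells of a library, and 3 UMIs correspond to between 0.0333 CPM (E17.5 cTEC) and 1.39 CPM (adult cTEC 1). Psmb11, which encodes a proteasome subunit of cTEC, was at 667 to 1474 CPM in the 5 cTEC libraries and at 3.85 and 8.57 CPM in adult mTEC, while Aire, the regulator of peripheral antigens in mTEC, was at 435 and 399 CPM in adult mTEC and at most 9.27 CPM elsewhere. Ccl21a, a chemokine gene of the mTEC I subset, did not follow this split, with 5398 and 873 CPM in adult cTEC 1 and 2 and 6443 and 2893 CPM in adult mTEC, against at most 203 CPM in the other libraries. No pair of libraries shared more than 61 cell barcodes, at most 1.17% of the smaller library. Intervals in brackets are exact 95% intervals that cover counting error only. Those of levels and of shares of UMIs treat UMIs as independent, so they are too narrow where single cells hold several UMIs of a gene.

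Hoxa3 was found in all libraries and lay between 16.6 and 20.7 CPM from E13.5 to the newborn. It was at 20.7 CPM in E13.5 TEC (300 UMIs), 17.9 CPM in E15.5 cTEC (491 UMIs), 18.7 CPM in E17.5 cTEC (1679 UMIs) and 16.6 CPM in NB cTEC (384 UMIs). Adult cTEC 2 was also at 16.6 CPM (67 UMIs), and adult cTEC 1 was at 7.88 CPM (17 UMIs). Adult mTEC 1 was at 3.73 CPM (62 UMIs) and adult mTEC 2 at 1.75 CPM (118 UMIs). In the order of levels, the intervals of E13.5 TEC (18.4 to 23.2), E17.5 cTEC (17.8 to 19.6) and E15.5 cTEC (16.3 to 19.5) overlapped their neighbours, as did those of adult cTEC 2 (12.9 to 21.1) and NB cTEC (14.98 to 18.3), while E13.5 TEC and NB cTEC did not overlap each other. The interval of adult cTEC 1 (4.59 to 12.6) lay below that of every other cTEC library and overlapped only that of adult mTEC 1 (2.86 to 4.78), and the interval of adult mTEC 2 (1.45 to 2.10) lay below all others.

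A UMI of Hoxa3 was present in few cells of any library. Since deeper cells show a gene more often, each cell was also thinned to 2000 UMIs, and shallower cells were left out (65 of 493 in adult cTEC 1 and 0 to 123 in the other libraries). The share of cells with Hoxa3 was then 4.43% in the E13.5 library, 3.24% and 3.63% in those of E15.5 and E17.5, 3.52% in the newborn, 2.34% and 3.83% in adult cTEC, and 0.631% and 0.583% in adult mTEC. Unthinned, these shares were 14.4%, 12.3%, 17.52%, 10.1%, 3.45%, 10.8%, 3.53% and 1.92%, in the same order. As a background, 1 of the 104 cells of an E13.5 cluster led by Hhex and Nkx2-1 held a Hoxa3 UMI (0.962%, median 5545.5 UMIs per cell), against 266 of the 1753 other epithelial-like cells of that library (15.2%, median 7281 UMIs). Hoxa3 had the highest thinned share of the members in 7 of 8 libraries, with Hoxa7 at 4.48% in the E13.5 library as the exception. Its UMIs were spread thinly, with 1.12 UMIs per positive cell at E13.5 and at most 4 in any cell of any library.

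Hoxa7, a gene of paralogue group 7 and so the most tailward of the members, showed another pattern. Its level was 26.3 CPM in the E13.5 library (381 UMIs), followed by 5.31 CPM (E15.5, 146 UMIs), 1.88 CPM (E17.5, 169 UMIs) and 0.994 CPM (NB, 23 UMIs). The adult cTEC libraries were at 4.17 CPM (9 UMIs) and 1.73 CPM (7 UMIs), and the adult mTEC libraries at 0.481 CPM (8 UMIs) and 0.386 CPM (26 UMIs). The E13.5 library was the highest, and the intervals of the 4 libraries from E13.5 to the newborn did not overlap (23.7 to 29.1, 4.49 to 6.25, 1.61 to 2.18 and 0.630 to 1.49). They are too narrow for this gene, since 80.8% of its UMIs at E13.5 and 52.2% in the newborn lay in cells with 2 or more. The share of thinned cells with a Hoxa7 UMI was 4.48% in the E13.5 library, 0.873% and 0.363% in those of E15.5 and E17.5, and 0.175% in the newborn.

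**Figure D1:**
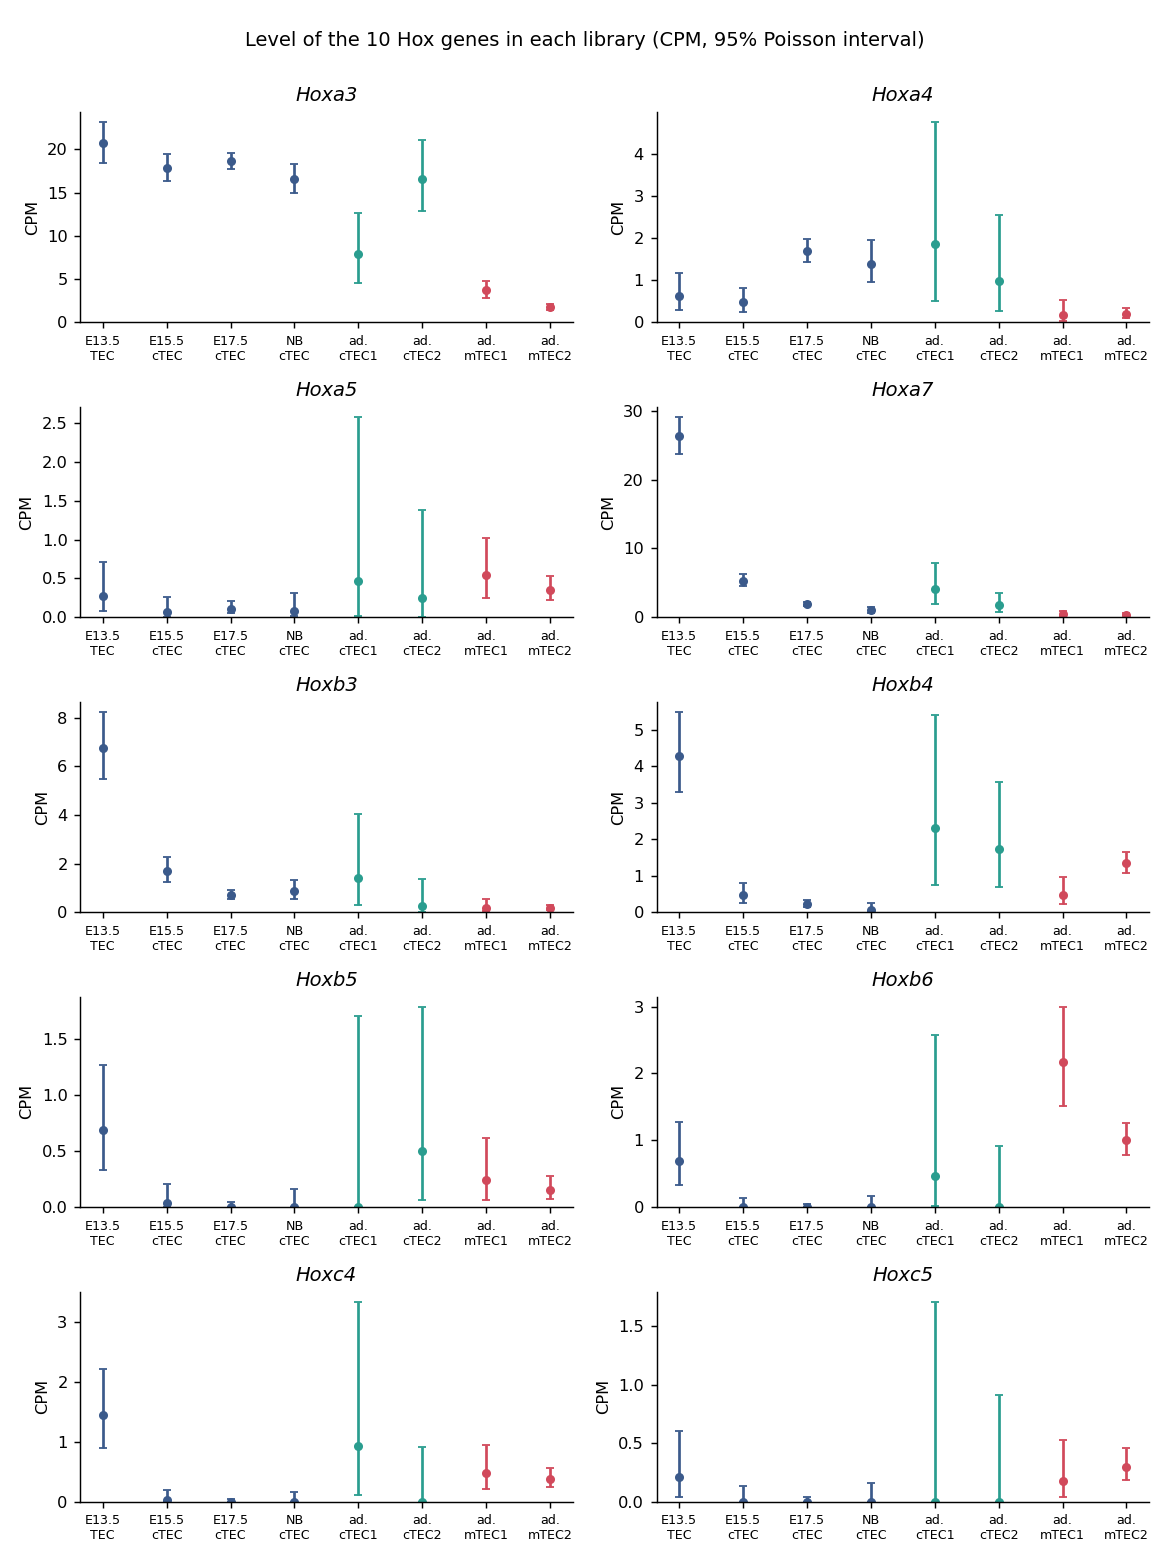
Level of each of the 10 Hox genes in the 8 libraries, in CPM over epithelial-like cells (linear axes that start at 0 and differ between panels). Points are libraries, bars are 95% Poisson intervals of the counts, blue marks E13.5 to NB, green adult cTEC and red adult mTEC. Hoxa3 sits between 7.88 and 20.7 CPM in all libraries but adult mTEC, Hoxa7 lies at 26.3 CPM at E13.5 and 0.994 CPM in NB, and Hoxb6 is highest in adult mTEC.

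The HoxB and HoxC members had their highest fetal levels at E13.5. Hoxb3, the group 3 paralogue of Hoxa3, had 6.77 CPM in the E13.5 library (98 UMIs), followed by 1.71 CPM (E15.5, 47 UMIs), 0.711 CPM (E17.5, 64 UMIs) and 0.864 CPM (NB, 20 UMIs), with 1 to 11 UMIs in each adult library. Hoxb4 had 4.28 CPM in the E13.5 library (62 UMIs), followed by 0.473 CPM (E15.5, 13 UMIs), 0.222 CPM (E17.5, 20 UMIs) and 1 UMI in the newborn. Its adult levels were 2.32 and 1.73 CPM in cTEC (5 and 7 UMIs) and 0.481 and 1.34 CPM in mTEC (8 and 90 UMIs), so its adult groups did not overlap, while the intervals of both cTEC libraries overlapped those of both mTEC libraries. The other HoxB and HoxC genes were at or near 0 between E15.5 and the newborn. Hoxb5 had 10 UMIs at E13.5, 1 at E15.5 and 0 at E17.5 and in NB cTEC. Hoxb6 had 10 UMIs at E13.5 and none at the following 3 stages, Hoxc4 had 21 UMIs and then 1, 0 and 0, and Hoxc5 had 3 UMIs and then none. At E17.5, the deepest cTEC library, 3 UMIs, which is taken as the limit that a count of 0 allows, are 0.0333 CPM.

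The remaining HoxA members were low in each library. Hoxa4, which lies within the span of the Hoxa3 locus, had 0.622 CPM in the E13.5 library, then 0.473 CPM (E15.5), 1.69 CPM (E17.5, 152 UMIs) and 1.38 CPM (NB). Its adult values were 1.85 and 0.990 CPM in cTEC, from 4 UMIs in each library, and 0.180 and 0.208 CPM in mTEC, from 3 and 14 UMIs. Hoxa5, a gene known for its part in lung and skeletal patterning, had no more than 24 UMIs in a library and lay between 0.0728 CPM (E15.5 cTEC) and 0.541 CPM (adult mTEC 1). Of cells thinned to 2000 UMIs, 12.4% held a UMI of at least 1 member at E13.5, then 4.85% (E15.5), 4.32% (E17.5) and 3.78% (NB), 3.97% and 3.64% in adult cTEC, and 1.26% and 1.33% in adult mTEC.

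Among the 29 other Hox genes, Hoxa2, best known from the neural crest of the second arch, was at a higher level in CPM than any member in all 8 libraries. Its level was 41.4 CPM at E13.5, then 45.3 CPM (E15.5), 38.2 CPM (E17.5) and 33.8 CPM (NB), with 12.5 and 18.1 CPM in adult cTEC, and 7.04 and 4.92 CPM in adult mTEC. Hoxb2, its group 2 paralogue, was at 14.8, 8.95, 6.88 and 4.32 CPM from E13.5 to the newborn, with 6.02 and 10.1 CPM in adult cTEC and 3.85 and 2.35 CPM in adult mTEC. Genes of groups 1 to 3 held 70.6% of all Hox UMIs at E13.5 and 94.5% at E17.5, against 29.1% and 16.7% in the adult mTEC libraries. Genes of groups 9 to 13 held 0.169% at E13.5 and 0.0156% at E17.5, and 49.6% and 63.8% in adult mTEC. The cortical libraries from E15.5 to the newborn thus held UMIs mostly of the headward end of HoxA and HoxB, while the adult mTEC libraries held UMIs of 35 and 38 of the 39 Hox genes.

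**Figure D2:**
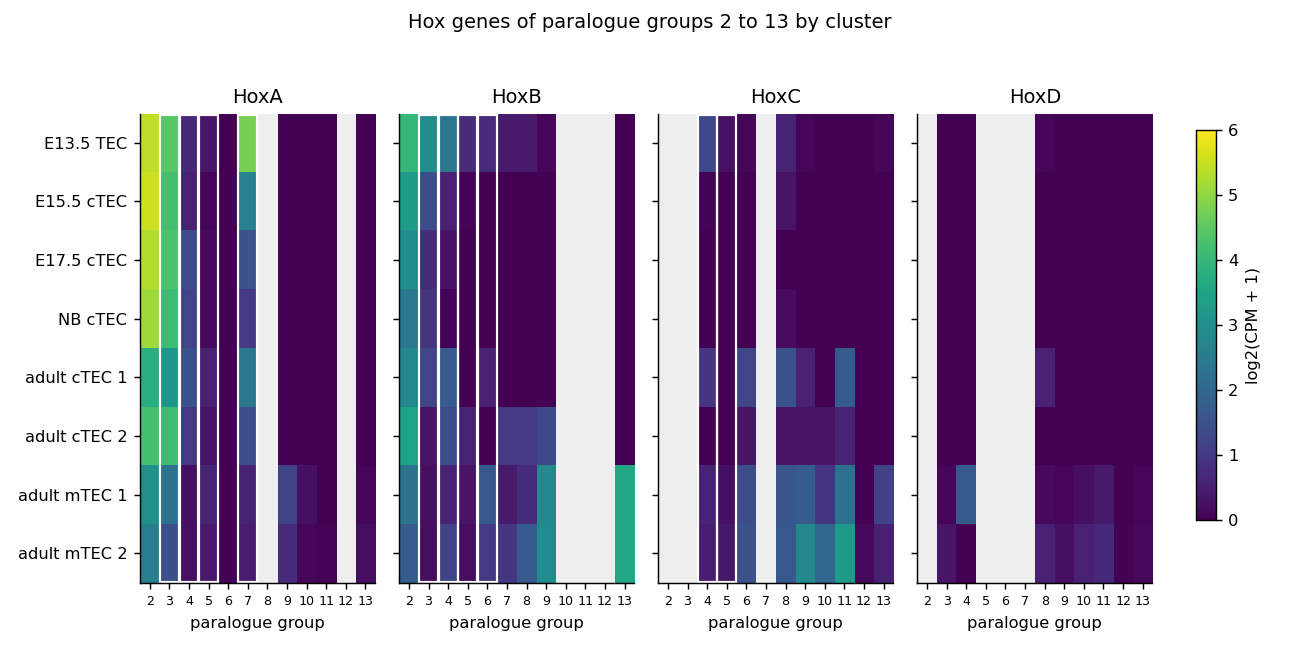
Level of the Hox genes of groups 2 to 13 by cluster (panels), paralogue group (columns) and library (rows), coloured by log2(CPM + 1), with white frames around the 10 members and grey where a cluster lacks the group. Colour in groups 8 to 13 is brightest in the adult mTEC rows and fainter in the adult cTEC and E13.5 rows, and the strongest columns of the cTEC rows are Hoxa2 and Hoxa3.

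The E13.5 library held cells of more than 1 kind, and the members were split between them. A cluster of 104 cells had Hhex, Nkx2-1, Lum and Pax8 as leading genes. Hhex, Nkx2-1 and Pax8 encode transcription factors also known from other organs of the foregut, and the cluster is called here by its leading genes. Over its 109 cells in all libraries, 4 of 8 mesenchymal and 3 of 6 thyroid markers were raised 4-fold. A name needed over 50% of a list, so the cluster stayed among the epithelial-like cells by a narrow margin. It made up 5.60% of the epithelial-like cells and 4.58% of their UMIs. Of the 98 Hoxb3 UMIs of the library, 27 lay in this cluster (27.6%, 19.0 to 37.5), as did 26 of 62 Hoxb4 UMIs (41.9%, 29.5 to 55.2), 5 of 10 Hoxb5 UMIs, 9 of 10 Hoxb6 UMIs and 13 of 21 Hoxc4 UMIs (61.9%, 38.4 to 81.9). By contrast it held 1 of 300 Hoxa3 UMIs (0.333%), 0 of 381 Hoxa7 UMIs and 3 of 600 Hoxa2 UMIs.

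As levels, the cluster was at 40.7 CPM for Hoxb3 and 39.2 CPM for Hoxb4, against 5.14 and 2.61 CPM in the other epithelial-like cells. Hoxc4 was at 19.6 against 0.579 CPM and Hoxb6 at 13.6 against 0.0724 CPM. Hoxa3 was at 1.51 CPM in the cluster and 21.6 CPM in the other cells, and Hoxa7 at 0 and 27.6 CPM. The cells of the cluster came from 1 library, so these values have no replicate and counting error is the only error shown. Hoxa3 and Hoxa7 thus lay mostly in the main epithelium, and the levels of Hoxb3, Hoxb4, Hoxb6 and Hoxc4 were higher in the Hhex and Nkx2-1 cluster.

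The 124 parathyroid-like cells of the same library, marked by Pth and Chga, were a further class. They held 14 Hoxa3 UMIs (24.0 CPM, 13.1 to 40.3), 12 Hoxb3 UMIs (20.6 CPM, 10.6 to 35.9), 2 Hoxb4 UMIs and none of Hoxa7, Hoxb6 or Hoxc4. The interval of Hoxa3 overlapped that of the main epithelium (21.6 CPM), with which the parathyroid shares its pouch of origin. Hoxa7 was not detected in the parathyroid-like cells, where 3 UMIs are 5.14 CPM.

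**Figure D3:**
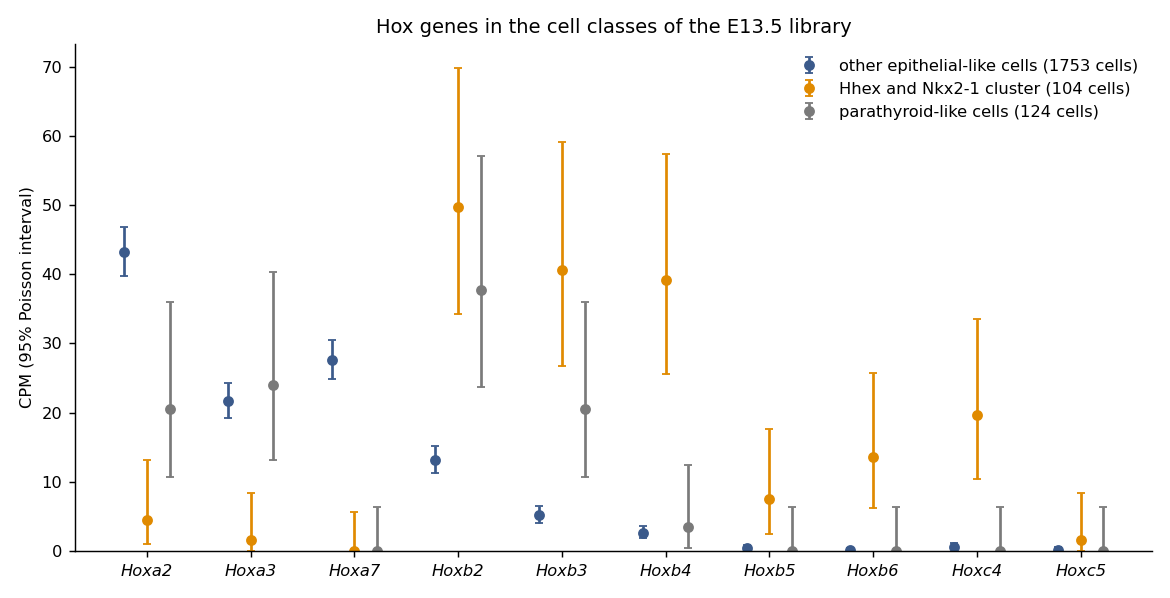
Level of 8 members and of Hoxa2 and Hoxb2 in 3 cell classes of the E13.5 library, in CPM on a linear axis that starts at 0, with 95% Poisson intervals. Hoxa2, Hoxa3 and Hoxa7 lie between 0 and 4.52 CPM in the Hhex and Nkx2-1 cluster (orange), where Hoxb3 and Hoxb4 are at 40.7 and 39.2 CPM, and Hoxa7 is at 27.6 CPM only in the other epithelial-like cells (blue).

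Within the main E13.5 epithelium, Hoxa7 also differed between clusters. It was at 38.9 CPM in the largest cluster (857 cells, led by Hmga2, Ptn and H19) and 25.3 CPM in a cluster of 602 cells led by Hmga2 and mitotic genes. In a cluster of 260 cells led by Krtdap and Krt5, keratinocyte and basal cell genes, it was at 2.27 CPM from 5 UMIs. Hoxa3 was at 21.0, 25.3 and 13.2 CPM in these 3 clusters. Over all epithelial-like cells at E13.5, those with a UMI of Psmb11 or Prss16, both genes of cTEC, held 375 of the 381 Hoxa7 UMIs. This was 31.1 CPM against 2.49 CPM in the 342 cells without. For Hoxb4 the split went the other way, with 17 UMIs (1.41 CPM) in cells with and 45 UMIs (18.7 CPM) in cells without these genes. Both splits took in the Hhex and Nkx2-1 cluster, which held 26 Hoxb4 UMIs and 0 Hoxa7 UMIs. They are thus not differences within the main epithelium alone. At E15.5 the 20 cells without Psmb11 or Prss16 held 8 of the 13 Hoxb4 UMIs.

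Hoxa7 transcripts were concentrated in few cells. At E13.5, 98 cells with 2 or more UMIs held 308 of the 381 UMIs (80.8%), and 1 cell held 14. At E15.5, 35 such cells held 78.1% of the UMIs, and at E17.5, 42 cells held 71.0%. For Hoxa3, cells with 2 or more UMIs held 21.3%, 20.8% and 24.4% of the UMIs at these stages, although its level was higher than that of Hoxa7 at E15.5 and E17.5. The number of UMIs per positive cell was 2.23, 2.18 and 1.86 for Hoxa7 and 1.12, 1.12 and 1.15 for Hoxa3.

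The cells with 2 or more Hoxa7 UMIs were not deeper than the others. Their median was 5808 UMIs against 7326 at E13.5, 6013 against 7359 at E15.5 and 8610 against 10360 at E17.5. At E13.5, 59 and 37 of these 98 cells lay in the clusters led by Hmga2, and 1 lay in the Krtdap and Krt5 cluster. These clusters held 857, 602 and 260 of the 1857 epithelial-like cells. In the largest cluster of the library lay 21 of 35 such cells at E15.5 and 22 of 42 at E17.5. That cluster held 1541 of all 3564 epithelial-like cells at E15.5 and 3487 of 8350 at E17.5, and the difference in share was not tested. The ranking that follows did not take cluster into account, so it also compares clusters. Genes were ranked in each library by the ratio of CPM in these cells to CPM in the other epithelial-like cells, with 10 CPM added to both, and the top 50 lists of the 3 libraries had 6 genes in common: Ebf1, Fgd5, Fst, Gpr45, Hmgn3 and Tnc. The same ranking for cells with 2 or more Hoxa3 UMIs gave 0 genes in common. These 6 genes were chosen on these values, so the values that follow are a description with no test.

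Tnc, which encodes the matrix protein tenascin-C, was at 196, 823 and 671 CPM in the Hoxa7 cells of E13.5, E15.5 and E17.5 and at 30.8, 217 and 218 CPM in the others. Ebf1, a transcription factor best known from B cells, was at 288, 194 and 128 CPM against 59.9, 43.9 and 32.7 CPM. The values of Fst rest on 15, 7 and 10 UMIs. This gene, which encodes the activin and BMP inhibitor follistatin, was at 25.1, 29.5 and 25.1 CPM against 0.937, 0.2202 and 0.268 CPM. Fgd5, an exchange factor for Cdc42, was at 100.5, 109.8 and 55.3 CPM against 10.1, 5.54 and 4.79 CPM, so all of these were higher in the Hoxa7 cells at each stage.

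Other genes of the top of these lists, also chosen after their values were seen, had other values at each stage. Akap12, a scaffold of protein kinase A, was at 928 CPM in the Hoxa7 cells of E13.5 and at 148 CPM in those of E17.5. Ccl21a, a chemokine of mTEC, was at 378, 1017 and 2019 CPM in the Hoxa7 cells of these stages, against 153, 39.3 and 147 CPM in the other cells. Cnmd, which encodes chondromodulin, was at 1.67 (1 UMI) against 1.51 CPM at E13.5, at 599 against 16.7 CPM at E15.5 and at 329 against 18.8 CPM at E17.5.

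**Figure D4:**
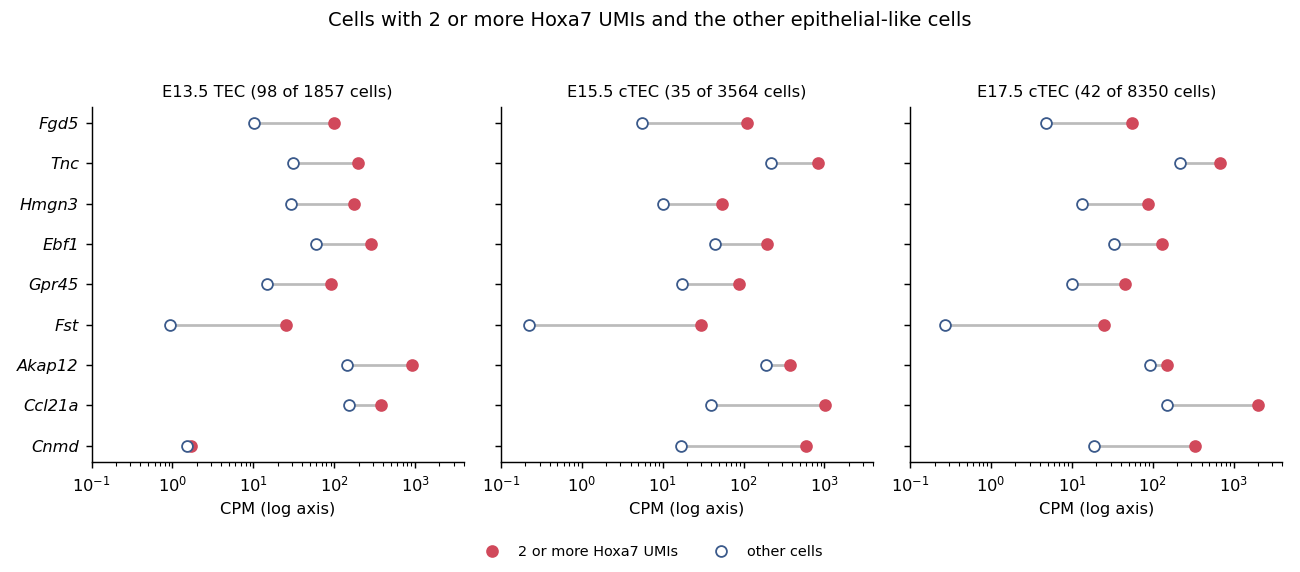
Level of 9 genes in epithelial-like cells with 2 or more Hoxa7 UMIs (red) and in the other cells (open blue) at E13.5, E15.5 and E17.5, in CPM on a log axis. Red lies to the right of blue for each gene at each stage, with the smallest gap for Cnmd at E13.5 (1.67 CPM from 1 UMI, against 1.51 CPM).

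The age trend was taken as the change of log2 level per stage step over the 6 libraries from E13.5 to adult cTEC, with data set as a term. Among 14342 genes tested by edgeR's quasi-likelihood test with Benjamini-Hochberg adjustment, 7.55% passed the threshold of 0.05, 4.78% higher and 2.78% lower with age. Of the 10 members, 6 passed the filter on low counts and 0 passed the threshold, also with DESeq2, although 2 of the 6 (Hoxa7 and Hoxb3) had an unadjusted p under 0.05. For Hoxa3 the slope was -0.22 per stage (SE 0.11, 95% interval -0.48 to 0.04, adjusted p = 0.242). For Hoxa7 it was -0.71 (SE 0.27, 95% interval -1.36 to -0.07, adjusted p = 0.153). For Hoxb3 it was -0.65 (SE 0.22, 95% interval -1.18 to -0.12, adjusted p = 0.124). The slopes of Hoxa4 (0.32), Hoxb4 (-0.16) and Hoxc4 (-0.51) had adjusted p-values of 0.456, 0.873 and 0.715.

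The slope of Hoxa7 depended on the cells counted. When the cTEC libraries were reduced to cells that held a Psmb11 or Prss16 UMI, its slope was -1.27 per stage with an adjusted p of 0.0217 (edgeR, quasi-likelihood test), and it was the only member past the threshold. In adult cTEC 1 that step left 1 of 9 Hoxa7 UMIs, in 326 of 493 cells, and in adult cTEC 2 it left 4 of 7 UMIs. Without the E13.5 library the slope was -0.27 (adjusted p = 0.6003). For Hoxb4 the sign turned, to 0.76 per stage without the E13.5 library (adjusted p = 0.424) and to 0.01 without the Hhex and Nkx2-1 cluster (adjusted p = 0.991).

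The other genes of the pathway were taken from fixed lists. Of the TALE cofactors 9 of 9 were tested and 0 passed, with a median slope of -0.14 (all genes tested -0.0004, the 6 tested members -0.37). Of 13 genes for the enzymes and receptors of retinoic acid, 1 passed, Dhrs3, which encodes an enzyme that returns retinal to retinol and rose by 0.64 per stage (adjusted p = 0.0257, edgeR). Of 23 chromatin regulators 2 passed, and both fell with age: Ezh2, the methyltransferase of Polycomb complex PRC2, at -0.68 per stage (adjusted p = 0.0444), and Jarid2, a partner of PRC2, at -0.36 (adjusted p = 0.0457). These counts are 7.69% and 8.70% of the genes tested in the lists, near the 7.55% of all genes. None of these 3 calls held without adult cTEC 1 (adjusted p = 0.178 for Dhrs3, 0.280 for Ezh2 and 0.196 for Jarid2) or without the E13.5 library (0.0512, 0.117 and 0.147), and that of Jarid2 was also lost without adult cTEC 2 (0.117), in data set 1 alone (0.115) and with all deposited cells or all clusters (0.0530 and 0.0531). Of 8 tested partners of Hoxa3 in the pouch 0 passed by edgeR, and 2, Six4 among them, had an unadjusted p under 0.05.

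Adult cTEC and adult mTEC were compared over 4 libraries, with data set as a term since each data set held 1 library of each group. By edgeR's quasi-likelihood test with Benjamini-Hochberg adjustment, 32.4% of 15627 genes passed, 11.2% higher in cTEC and 21.2% lower. Of the 10 members 5 were tested and 2 passed, Hoxa3 and Hoxa7, both higher in cTEC, so the share of members called was near that of all genes. Hoxa3 was at 7.88 and 16.6 CPM in cTEC (mean 12.2, SD 6.16, n = 2) and at 3.73 and 1.75 CPM in mTEC (mean 2.74, SD 1.40, n = 2), and the groups did not overlap. Its log2 difference was 2.19 (SE 0.58, 95% interval 1.04 to 3.34, adjusted p = 0.00190).

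The size of the Hoxa3 difference differed between the data sets. In data set 1 it was 2.11-fold, a log2 difference of 1.08 (0.21 to 1.87), and in data set 2 it was 9.46-fold, a log2 difference of 3.24 (2.79 to 3.69), with intervals for counting error that do not overlap. Without a term for data set the adjusted p was 0.0479, and when 1 library at a time was also left out it was 0.0502 (without adult cTEC 1), 0.199 (without adult cTEC 2), 0.0110 (without adult mTEC 1) and 0.180 (without adult mTEC 2). With DESeq2 it was 0.135, with a log2 difference of 2.10. The difference was as large in cTEC that held a Psmb11 or Prss16 UMI, at 2.15 (adjusted p = 0.0373).

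Hoxa7 was at 4.17 and 1.73 CPM in adult cTEC (mean 2.95, SD 1.72, n = 2) and at 0.481 and 0.386 CPM in adult mTEC (mean 0.434, SD 0.0672, n = 2), with no overlap. The log2 difference was 2.53 (SE 1.02, 95% interval 0.50 to 4.57, adjusted p = 0.0477), from 16 UMIs in both cTEC libraries together. Hoxa7 passed the filter on low counts only through cTEC, so its sign was fixed by entering the test. It was past the threshold with no term for data set (adjusted p = 0.0326), and not with no filter on low counts (0.1002), with DESeq2 (0.301), without a cluster rich in haemoglobin transcripts (0.0518) or without any 1 library (0.0674 to 0.471). In cTEC that held a Psmb11 or Prss16 UMI, 5 Hoxa7 UMIs were left, too few to pass the filter on low counts, so the call had no counterpart there. In adult cTEC 1, 8 of the 9 UMIs lay in the 167 cells without Psmb11 or Prss16 (14.6 CPM, 6.29 to 28.7, against 0.621 CPM in the others), so in data set 1 its level rested mostly on cells in which neither cTEC gene was detected.

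Of the markers of mesenchyme, Dcn moved with this comparison. It was at 499 and 310 CPM in adult cTEC and at 78.4 and 46.8 CPM in adult mTEC. Of 8 mesenchymal markers 6 had a UMI in each adult cTEC library and 8 in each adult mTEC library, with a summed level of 510 and 318 CPM in cTEC and 99.7 and 69.1 CPM in mTEC, most of it Dcn. Pdgfra was at 0 in both cTEC libraries, Col1a1 was at 0 in adult cTEC 1 and Pdgfrb at 0 in adult cTEC 2. The mTEC I marker Ccl21a was also at 5398 CPM in adult cTEC 1, the adult cTEC library with the lower Hoxa3 and the higher Hoxa7 level. The part of cells with Dcn or Ccl21a in the Hox differences was not tested. In summed counts, fewer cells of a type and less RNA per cell cannot be told apart.

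The other 3 tested members did not pass. Of these, Hoxa4 passed the filter on low counts only through cTEC and Hoxb6 only through mTEC, so their signs were fixed by entering the test. Hoxa4 had a log2 difference of 2.62 (adjusted p = 0.146), from 4 UMIs in each cTEC library, and passed only with no term for data set (adjusted p = 0.0389). Hoxb4 had a difference of 1.10 (adjusted p = 0.435). Hoxb6, a gene of group 6, was the only tested member with the opposite sign (adjusted p = 0.110): it had 36 and 67 UMIs in adult mTEC (2.166 and 0.995 CPM) and 1 and 0 UMIs in adult cTEC. Of the members too low to be tested, Hoxa5 had 1 UMI in each cTEC library and 9 and 24 in mTEC, Hoxb3 had 3 and 1 against 3 and 11, Hoxb5 had 0 and 2 against 4 and 10, Hoxc4 had 2 and 0 against 8 and 26, and Hoxc5 had 0 and 0 against 3 and 20. The cTEC libraries were shallow, and 3 UMIs there are 1.39 and 0.743 CPM.

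**Figure D5:**
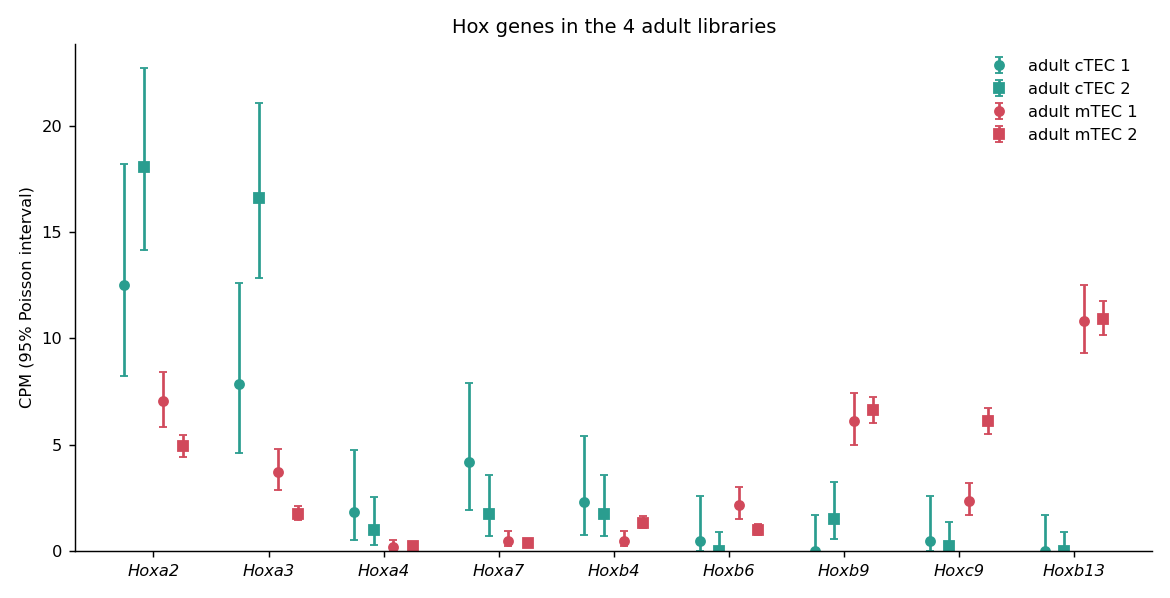
Level of 5 members and of Hoxa2, Hoxb9, Hoxc9 and Hoxb13 in the 4 adult libraries (circles data set 1, squares data set 2), in CPM on a linear axis that starts at 0, with 95% Poisson intervals. Hoxa2 and Hoxa3 are higher in both cTEC libraries (green) than in both mTEC libraries (red), and Hoxb13 is at 10.8 and 10.9 CPM in mTEC and at 0 in cTEC.

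Of the other Hox genes 9 were tested and 5 passed (55.6%, beside 32.4% of all genes tested). Hoxa2 passed with a log2 difference of 1.32 (adjusted p = 0.0241, edgeR). Genes of groups 9 to 13 were lower: Hoxb9 at -3.01 (adjusted p = 0.00305), with 0 and 6 UMIs in cTEC against 102 and 445 in mTEC; Hoxc9 (adjusted p = 0.00509), with 1 and 1 against 39 and 410; and Hoxc11 at -2.38 (adjusted p = 0.0162). Hoxb13, a gene of the tail and of the prostate and colon, had 180 and 736 UMIs in adult mTEC and none in adult cTEC (adjusted p = 3.8e-08). Set against 3 UMIs per cTEC library, it was higher in mTEC by at least 2.96 (data set 1) and 3.88 (data set 2) on the log2 scale. Hoxb13 and Hoxc9 passed the filter on low counts only through mTEC. Their sign was thus fixed by entering the test, and their p-values add no support beyond the counts. Hoxd4 had 37 UMIs in adult mTEC 1 and 0 in adult mTEC 2, whose gene lists differ.

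Within adult mTEC the members also lay in different cells. Clusters named mTEC I from markers such as Ccl21a, Krt5 and Krt14 held 31 of 62 Hoxa3 UMIs in adult mTEC 1 (8.86 CPM, 6.02 to 12.6) and 70 of 118 in adult mTEC 2 (7.43 CPM, 5.79 to 9.39). In the mTEC III clusters, marked by late keratinocyte genes such as Krt10, Hoxa3 had 0 and 1 UMIs. Hoxa2 showed the same split, at 14.9 and 12.7 CPM in mTEC I and 1.74 and 1.28 CPM in mTEC III. Adult cTEC 1, which also carried the mTEC I marker Ccl21a, was at 7.88 CPM for Hoxa3.

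Hoxb6 had 0 and 1 UMIs in the mTEC I clusters. In adult mTEC 1, 30 of its 36 UMIs lay in the cluster named mTEC II, which expresses Aire (7.85 CPM, 5.30 to 11.2). In adult mTEC 2, where no cluster took that name, 64 of 67 lay in unnamed clusters. Its UMIs were bunched, with 4 per positive cell in adult mTEC 1 (9 cells, up to 19 in 1 cell) and 1.86 in adult mTEC 2 (36 cells, up to 10). The interval of its mTEC II level is thus too narrow. Hoxb4 was seen at 3.84 CPM in the mTEC III cluster of adult mTEC 2 (9 UMIs) and at 0.425 CPM in its mTEC I clusters (4 UMIs).

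Of the Hoxb6-positive cells, 5 of 9 in adult mTEC 1 (55.6%, 21.2 to 86.3) and 10 of 36 in adult mTEC 2 (27.8%, 14.2 to 45.2) also held a UMI of Hoxb9, a gene of the same cluster, against 2.60% and 4.14% of the other cells. Aire was held by 9 of 9 and 29 of 36 (80.6%, 63.98 to 91.8), against 51.3% and 74.8% of the other cells. The Hoxb6 cells were deeper than the others (median 12179 against 9434.5 UMIs and 13410 against 11347), and the part of depth in these shares was not tested.

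Among Hoxa3-positive mTEC, a UMI of Hoxa2 was in 7 of 56 (12.5%) and 15 of 108 (13.9%) of them, against 6.02% and 5.01% of the other cells, at a median depth of 8832.5 against 9500 and 10912.5 against 11360 UMIs. Hoxb9 was in 0 of 56 and 1 of 108, against 3.01% and 4.36% of the others. Aire was in 26.8% of the Hoxa3 cells against 52.5% of the others in adult mTEC 1, and in 62.0% against 75.1% in adult mTEC 2.

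The partners of the Hox genes were compared between the adult lineages as well. Of the 9 TALE cofactors 4 passed (44.4%, beside 32.4% of all genes tested), among them Meis1 (log2 difference 2.04, adjusted p = 2.2e-05) and Meis2 (1.01, adjusted p = 0.0340), which were higher in cTEC, and Meis3, which was lower (-1.77, adjusted p = 0.00469, edgeR). Of the noncoding RNAs of the clusters 4 were tested and 3 passed (75.0%, beside 32.4% of all genes tested), each higher in cTEC. Hotairm1, transcribed from the headward end of HoxA, was at 103 and 74.8 CPM against 4.93 and 3.64 CPM (log2 difference 4.30, adjusted p = 3.7e-13). Hoxb3os, antisense to Hoxb3, and Gm15050 had differences of 3.66 (adjusted p = 5.8e-09) and 1.69 (adjusted p = 0.00681).

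Of the 8 tested partners of Hoxa3 in the pouch 3 passed (37.5%, near the 32.4% of all genes tested): Bmp4 by 5.26, Eya1 by 2.03 and Pax1 by 1.96 on the log2 scale, all in favour of cTEC (adjusted p = 1.7e-06, 3.4e-05 and 0.000113, edgeR). The Bmp4 value rests on 18 and 26 UMIs in cTEC and 2 and 14 UMIs in mTEC. This gene passed the filter on low counts only through cTEC, so its sign was fixed by entering the test. Of 15 genes of retinoic acid 4 were higher in cTEC and 5 lower (60.0% of those tested). Crabp1, which encodes a carrier of retinoic acid, had 0 and 1 UMIs in cTEC against 70.3 and 99.6 CPM in mTEC (adjusted p = 6.7e-17). Cyp26a1, which encodes an enzyme that degrades it, had 2 and 0 UMIs against 55.6 and 36.4 CPM (adjusted p = 1.8e-13), and Aldh1a2, for an enzyme that makes it, had 0 and 0 UMIs against 2.77 and 2.896 CPM (adjusted p = 0.00250). All 3 were lower in cTEC, whose counts are at or under 3 UMIs, so no fold is given. These 3 genes passed the filter on low counts only through mTEC, so their sign was fixed by entering the test. Their p-values thus add no support beyond the counts, and the 60.0% includes them. Dhrs3 had a log2 difference of 2.63 in favour of cTEC. Of 23 chromatin regulators 4 were higher and 1 lower (21.7% of those tested). Kmt2d, a Trithorax-type methyltransferase, was higher by 2.40 and the PRC1 subunit Pcgf2 by 2.20, while Ezh2 was lower by 1.49 (adjusted p = 0.00279). The median difference was 0.06 over the retinoic acid genes and 0.40 over the chromatin regulators, beside -0.14 over all genes tested.

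Cycling cells were set against the other cells of the same library by a proliferation score that uses no Hox gene, with library as a block. Adult cTEC 1 was left out, since it had 7 cycling cells. Of 12892 genes 33.7% passed (edgeR's quasi-likelihood test with Benjamini-Hochberg adjustment, 13.1% higher and 20.6% lower in cycling cells). Of the 10 members 3 were tested and 0 passed, also with DESeq2, and 1 (Hoxa7) had an unadjusted p under 0.05. Hoxa3 was at 20.9 CPM in cycling and 20.01 CPM in resting cells at E13.5, with 18.7 and 17.4 CPM (E15.5), 16.5 and 19.2 CPM (E17.5) and 16.7 and 16.6 CPM (NB) at the next stages. Its log2 difference was -0.08 (95% interval -0.31 to 0.15, adjusted p = 0.589), and that of Hoxa4 was 0.09 (adjusted p = 0.877).

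For Hoxa7 the level at E13.5 was 17.47 CPM in cycling and 70.9 CPM in resting cells. At E15.5 it was 5.14 and 5.41 CPM, at E17.5 0.470 and 2.21 CPM and in NB cTEC 0.320 and 1.10 CPM. Adult cTEC 2 was at 0 and 1.98 CPM, adult mTEC 2 at 0 and 0.507 CPM, and adult mTEC 1 was the exception with 1.63 CPM in cycling cells (5 UMIs) and 0.221 CPM in resting cells (3 UMIs). The log2 difference over the 7 libraries was -1.33 (95% interval -2.48 to -0.18, adjusted p = 0.0712). It passed without E15.5 cTEC (-1.79, adjusted p = 0.0437), without adult mTEC 1 (-1.59, adjusted p = 0.0142) and with no filter on low counts (-1.29, adjusted p = 0.000124). Of the cells with 2 or more Hoxa7 UMIs at E13.5, 54.1% (43.7 to 64.2) were cycling, against 78.3% of the other cells.

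Among the partners, Hoxa2 was higher in cycling cells by 0.29 (adjusted p = 0.0457, edgeR), and of the TALE cofactors 3 of 9 passed (33.3%, beside 33.7% of all genes), among them Pbx3 (0.56) and Pknox1 (0.44), which were higher. Hotairm1 was lower in cycling cells, by 0.98 on the log2 scale (adjusted p = 0.000630), the only 1 of 4 noncoding RNAs to pass. Of 8 partners in the pouch 2 passed, Foxn1 at -0.41 and Pax1 at -0.30. Of 12 genes of retinoic acid 5 passed (41.7%), with Aldh1a3 higher (1.03) and 4 lower, among them Rxrg (-1.03), Cyp26b1 (-0.81) and Rarg (-0.71). Of 23 chromatin regulators 13 passed (56.5%), 7 higher and 6 lower, led by Ezh2 at 1.70, Ctcf at 0.86, Psip1 at 0.83 and Suz12 at 0.75. Ctcf is itself a gene of the proliferation score, so its difference was fixed in part by the choice of cells.

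The genes most like a member over the 8 libraries were found by Pearson's r of log2(CPM + 1) among 10642 genes with a mean of at least 5 CPM, which is a description, since libraries share lineage and depth. For Hoxa3 these were Rab13 (r = 0.99), P3h4 (0.99) and Zfp354c (0.98). Rab13 was at 30.9 CPM at E13.5 and 14.02 and 11.4 CPM in adult mTEC. For Hoxa7 they included Phf6 (0.99) and Arhgap29 (0.98). Phf6 was at 56.98 CPM at E13.5, 8.73 to 17.1 CPM in the cTEC libraries and 7.76 and 6.55 CPM in adult mTEC. No other member had a mean of 5 CPM.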

How the data were processed

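The authors made Chromium version 2 libraries of sorted cells and deposited raw UMI counts per gene and cell. Their processing notes name Cell Ranger 2.0.1, STAR 2.5.1b, bcl2fastq 2.17 and the build mm10, while 3 of the 8 matrices (those of data set 2, which holds E17.5 and the second adult libraries) name version 3.0.1 in their headers. The labels give Thymus as the tissue, and their growth protocol speaks of bone marrow. A UMI marks 1 captured transcript end, so no length correction was made. The members and lists were chosen with earlier results of these data known.

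Cells with over 5% mitochondrial UMIs or over 5000 genes were left out, and each data set was clustered (2000 variable genes, 20 components, 20 neighbours, Leiden resolution 0.8) in Python 3.11.15 with scikit-learn 1.9.0, igraph 0.11.9 and leidenalg 0.10.2. Clusters with at least 3 markers of another cell type, and over 50% of that list, at 4-fold (mTEC subsets 2-fold) were named from fixed markers. No doublet caller was run. UMI counts were summed per library and tested in edgeR 4.0.16 (R 4.3.3; filterByExpr, TMM, quasi-likelihood F test, Benjamini-Hochberg, threshold 0.05), with DESeq2 1.42.0 as an alternative. Stages were ranked 1 to 5. Data set, taken from the study's methods, ties replicate 1 and replicate 2 of the adult groups. Libraries are not stated to be separate animals, so p-values refer to libraries and not to animals. The residual degrees of freedom were 3 (trend), 1 (lineage) and 6 (cycling). The quasi-likelihood test adds to these an error shared over all genes tested. A p-value of the lineage fit therefore rests mostly on that shared error and does not measure the spread of the single gene between libraries. On simulated counts with 200 changed genes the trend fit (log2 change 1 per stage) recovered 198, the lineage fit (log2 change 2) 179 and the cycling fit (log2 change 1) 194. False calls were 15, 2 and 9 in the same order. The changed genes were drawn from those with an average log2 CPM above 5. Every tested member lay below that (Hoxa3 in the trend fit at 4.07), so the recovery does not cover the members. Standard errors of log2 values were taken as the value divided by the square root of F. Intervals are exact Poisson (levels) or Clopper-Pearson (shares).

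Named were the 10 members, other Hox genes with at least 10 UMIs in a library by level or past the threshold, up to 4 genes per fixed list and comparison past the threshold, and the 3 most alike genes for members with a mean of at least 5 CPM. Alternatives were RLE scaling, no filter, DESeq2, all cells, all clusters, no term for data set or no block, cells with Psmb11 or Prss16, other selections of libraries, another score and thinning to 4000 UMIs. A cluster rich in haemoglobin transcripts and the lineage fits with 1 library left out and no term for data set were added after seeing the data. Some genes and sequences that this rule covers are not reported here.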

Additional observations from a re-analysis of the deposited data

Results flagged for a closer look

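For Hoxc4 and Hoxb1 the sign of the adult difference was not the same in the data sets. Hoxc4 was higher in cTEC than in mTEC by 0.445 CPM in data set 1 and differed by -0.386 CPM in data set 2, from 2 and 0 UMIs in cTEC. Hoxb1 differed by 1.998 CPM in data set 1 and by -0.178 CPM in data set 2, from 6 and 0 UMIs in cTEC. Neither gene passed the filter of the lineage fit, and the difference between the data sets was not tested.

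Cells left out as not epithelial-like also held members. The parathyroid-like cells of E13.5 TEC had 14 UMIs of Hoxa3 and 12 UMIs of Hoxb3 in 124 cells. The thymocyte-like cells of NB cTEC had 29 UMIs of Hoxa3 and 4 UMIs of Hoxb3 in 169 cells, and Hoxa3 was there at 18.8 CPM (12.6 to 27.0) beside 16.6 CPM in the epithelial-like cells. These thymocyte-like cells had a median of 8627 UMIs, none of Hoxa7 and 36 UMIs of Hoxa2. Whether they are single cells was not tested.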

How the results depend on the processing

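Of the members, the count past the threshold in the age trend was 0, and 1 (Hoxa7) with cTEC restricted to cells with Psmb11 or Prss16. Between adult cTEC and mTEC it was 2, and 1 with no filter, with Psmb11 or Prss16 cells and without the haemoglobin cluster, 0 with DESeq2, and 0 to 1 with 1 library left out and no term for data set. With that term, leaving out 1 adult library left no residual degrees of freedom, so no fit was made. Between cycling and resting cells the count was 0, with no filter 2 (Hoxa7 and Hoxb6), and 0 to 1 with 1 library left out. Hoxb4 reversed in the trend, at 0.76 without the E13.5 library and 0.0117 without the Hhex and Nkx2-1 cluster, with -1.17 to 0.76 over the fits that left out 1 library. The cause of these changes was not tested. Data set as replicate block is part of the lineage fit and library is the block of the cycling fit. With no replicate block 3 members passed between the lineages (Hoxa4 in addition) and 0 in the cycling comparison, where the calls over all genes went from 4345 to 528. Over all genes, the trend had 1083 calls, 2835 with DESeq2, 438 in data set 1 alone, 460 without adult cTEC 2 and 16 without adult cTEC 1, and the lineage fit had 5063 calls, 2572 with DESeq2 and 1528 to 2874 with 1 library left out and no term. Of the values for single genes and shares, 576 kept their direction and side of the threshold or moved by less than their error, 107 lost and 5 gained a call, 10 shares moved and 2 reversed. Depth limits the adult cTEC libraries most: in adult cTEC 1, 3 UMIs are 1.39 CPM.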
